A study of Homo sapiens with 12 samples.

Results

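The G2/M regulators described here are 10 genes that drive or restrain the entry of cells into mitosis: the cyclin genes CCNA2, CCNB1 and CCNB2, the kinase gene CDK1, the phosphatase genes CDC25B and CDC25C, the kinase genes PLK1 and WEE1, the mitotic ubiquitin ligase activator CDC20 and the transcription factor FOXM1. They were chosen by name, and every probe annotated with one of these symbols, or with CDC2 as the older symbol of CDK1, was taken. The 10 genes are among 25157 named by a symbol on the array, and they had 15 of its 48797 probes. The brightest were ILMN_1786125 (CCNA2), ILMN_1712803 (CCNB1), ILMN_1801939 (CCNB2), ILMN_1747911 (CDK1), ILMN_1663390 (CDC20), ILMN_2338323 (CDC25B), ILMN_1725260 (CDC25C), ILMN_1736176 (PLK1), ILMN_1778561 (WEE1) and ILMN_2344971 (FOXM1). Transcript levels were measured on 12 Illumina BeadArrays hybridised with RNA of HT1080 cells, an established human fibrosarcoma line, in 4 groups of 3 arrays. The groups were ING2-WT cells treated with 100 uM etoposide, ING2-WT cells treated with the solvent DMSO, ING2-6K/Rmt cells treated with 100 uM etoposide and ING2-6K/Rmt cells treated with DMSO. The labels give 16 h of treatment for all 4 groups, and the text of the study gives another time for its expression arrays.

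ING2 belongs to a chromatin complex with SIN3A and the histone deacetylase HDAC1. Both lines had been stably transduced with an epitope-tagged ING2, wild type in one and in the other a form with altered basic residues that fails to bind the nuclear lipid phosphatidylinositol-5-phosphate. The study describes the lines as populations made by retroviral transduction, with endogenous ING2 protein depleted. Etoposide stabilises topoisomerase II on cut DNA and leaves double-strand breaks. The study calls the replicates of its expression data biological, the labels do not say whether a group's 3 arrays stand for separate cultures, and the tests measure only the spread between these arrays, which may in part be technical.

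Cyclin B binds CDK1 to form the kinase that starts mitosis, and cyclin A acts with CDK2 in S phase and with CDK1 in G2. WEE1 holds CDK1 inactive by phosphorylation, the CDC25 phosphatases remove that phosphate, and PLK1 helps to switch the balance toward mitosis. CDC20 then directs the anaphase-promoting complex (APC/C) to cyclin B and securin for destruction, and FOXM1 activates the transcription of many of these genes. The transcripts of most of them are made mainly in late S, G2 and M phase, so their amount in a bulk sample depends on how many cells are in those phases and on how much RNA each such cell holds, which cannot be told apart here.

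Values are quantile-normalised intensities on a linear scale, and tests were made on log2 values with a floor of 16. A probe was tested if it reached 64 on 3 arrays or more of the 12, as 15459 probes did. All 15 member probes passed, although for 9 of them the ING2-WT etoposide and ING2-6K/Rmt DMSO arrays alone would not have met this minimum. The arrays numbered 3 stood apart: their mean correlation with the other arrays of their own group was 0.746 to 0.938, against 0.854 to 0.959 for those numbered 1 and 2, so the counts of member genes are also given without them. All 6 mesenchymal markers reached 64 on every array (summed intensity 36000 to 63690), whereas none of the 3 epithelial and none of the 3 blood cell markers did (summed intensity 81.8 to 185.5 and 48.0 to 143.4). These sums count each value as at least 16. Of these, 1 epithelial and 2 blood cell markers were under 64 on all arrays. The others reached it on some, at most 147 for CDH1, 127.6 for EPCAM and 66.9 for HBB. The 2 ING2 probes gave 21056 and 11846 on ING2-6K/Rmt etoposide array 1 and 20293 and 8853 on array 2. On array 3 of that group they gave 119 and 206, and over the other 9 arrays 112 to 455 and 140.0 to 650. The 6 ING2-WT arrays, at 148 to 455 and 174 to 650, were thus no brighter than the ING2-6K/Rmt DMSO arrays, and whether these probes read the transduced ING2 is not given in the sources used here. CDKN1A, the p53-induced inhibitor of cyclin-dependent kinases that rises after DNA damage, averaged 15600 ± 1010 in ING2-WT etoposide cells and 3637 ± 657 in ING2-WT DMSO cells, but 4794 ± 1510 on the arrays labelled ING2-6K/Rmt etoposide and 14260 ± 2470 on those labelled ING2-6K/Rmt DMSO (SD, n = 3 each). MDM2, the p53-induced ubiquitin ligase of p53, averaged 325 ± 123 in ING2-WT etoposide cells and 69.3 ± 14.6 in ING2-WT DMSO cells, and 82.3 ± 29.6 and 223 ± 23.8 on the arrays labelled ING2-6K/Rmt etoposide and ING2-6K/Rmt DMSO. Because these checks ran against the labels of the ING2-6K/Rmt arrays, the direction of every comparison that uses them, between the lines and in the interaction as well as within the line, is that of the labels. Whether the labels and the arrays match was not tested.

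Promoters of G2/M genes are known for a cell cycle genes homology region (CHR), through which the DREAM and MuvB complexes act, and for CCAAT boxes, which bind NF-Y. RefSeq promoter windows on GRCh38.p14, from 250 bases before to 50 after a start site, were found for 8 of the 10 members (15 windows). The usual CHR letters are TTTGAA (15.2% of all windows). Of its variants, TTTAAA was searched too (12.2% of all windows). A further variant searched was TTCGAA (1.45% of all windows). The CCAAT box was searched by the letters of its name, and all searches covered both strands. Matches of the CHR letters and of CCAAT did not overlap in the member windows. CHR letters were present in 10 of the 15 member windows and in 25.1% of all 35116 windows. CCAAT was present in 11 of the 15 and in 34.6% of all windows, and both together in 9 of the 15 and in 9.70% of all windows. By gene, 7 of the 8 had CHR letters in a spelling searched and all 8 had CCAAT, each in at least 1 window. CDC25B and CDC25C had 4 windows each and CDK1 had 2, some of them overlapping. The counts by gene therefore cannot be set against the shares of windows. The stretches below were chosen because they show both kinds of letters close to the start site in the cyclin B genes, CDC20 and PLK1, the same CHR letters beside a CDK1 and a CDC25C start, and the CCNA2 promoter, which lacked the CHR letters searched. They are printed 5′ to 3′ on the strand of the gene, with matches in capitals.
CCNB1: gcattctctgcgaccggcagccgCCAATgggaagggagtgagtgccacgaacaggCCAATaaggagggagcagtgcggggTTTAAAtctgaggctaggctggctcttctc
CCNB2: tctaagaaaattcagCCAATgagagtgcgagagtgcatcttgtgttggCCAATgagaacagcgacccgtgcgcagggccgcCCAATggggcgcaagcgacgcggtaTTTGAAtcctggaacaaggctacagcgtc
CDC20: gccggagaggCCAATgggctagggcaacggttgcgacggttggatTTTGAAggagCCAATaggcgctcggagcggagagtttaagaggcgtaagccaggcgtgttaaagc
PLK1: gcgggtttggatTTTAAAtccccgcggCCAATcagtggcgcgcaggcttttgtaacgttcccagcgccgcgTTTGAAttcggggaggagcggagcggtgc
CCNA2: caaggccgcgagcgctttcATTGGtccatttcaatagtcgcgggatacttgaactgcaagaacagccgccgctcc
CDK1: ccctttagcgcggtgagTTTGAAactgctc
CDC25C: tggcggaaggTTTGAAtggtcaacgcctgc
The first 5 stretches end at the last base before the start site. They lie at chr5:69167040-69167149 (plus strand) for CCNB1, chr15:59105011-59105145 (plus strand) for CCNB2, chr1:43358871-43358980 (plus strand) for CDC20, chr16:23678789-23678888 (plus strand) for PLK1 and chr4:121823884-121823958 (minus strand) for CCNA2. The CDK1 stretch, at chr10:60778448-60778477 (plus strand), belongs to the second of 2 start sites, and the CDC25C stretch, at chr5:138331815-138331844 (minus strand), to 1 of 4. Counted from the start site, the CHR letters began at -30 in CCNB1, -29 in CCNB2, -88 and -29 in PLK1 and -65 in CDC20, at -13 in CDK1 and at -30 in CDC25C. In CCNA2 a CCAAT box lay on the opposite strand at -56. The CCNA2 stretch also holds the letters cttgaa, which differ from TTTGAA in the first letter and were not searched. The search therefore does not tell whether CCNA2 has a CHR of another spelling. A match is only a match of letters, and no binding was measured on these arrays.

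The first comparison asks how the G2/M genes responded to etoposide in ING2-WT cells. All 10 genes were lower in etoposide (limma, Benjamini-Hochberg adjusted over 15459 probes), as were 14 of the 15 probes, whereas 2.86% of all probes were called lower. With no filter on dim probes 11 of the 15 were lower, against 0.768% of the 48797 probes then tested. Median log2 change was -3.05 over the members and -0.06 over all tested probes. In none of the 10 genes did the etoposide arrays overlap with the DMSO arrays, a separation in this direction that 10.8% of all probes showed.

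Among the cyclins, CCNB1 had intensities of 17.0, 34.0 and 127 on the 3 etoposide arrays, against 898, 1108 and 702 on the 3 DMSO arrays. Only array 3 of the etoposide group reached 64, and every DMSO array was above it. The change was -4.41 on the log2 scale (SE 0.60, adjusted p = 0.00240), 21.2-fold lower with etoposide. This size depended on dim arrays: it was -3.75 without etoposide array 1, -5.21 without etoposide array 3 and -3.46 with a floor of 64. CCNB2 had 155, 152 and 124 with etoposide, against 2092, 1852 and 997 with DMSO. Its etoposide arrays lay close together and its 3rd DMSO array was the lowest of that group, still above every etoposide array. CCNB2 changed by -3.46 (SE 0.35, adjusted p = 0.000597). CCNA2 had 178, 162 and 235 with etoposide, against 1988, 2263 and 855 with DMSO, a change of -3.05 (SE 0.44, adjusted p = 0.00303). The groups did not overlap, and DMSO array 3 was again the lowest of its group.

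CDK1, the kinase that the B cyclins activate, had 229.9, 206 and 29.2 at its brighter probe with etoposide, against 1763, 1719 and 945 with DMSO. Array 3 was the lowest of both groups. The change was -3.67 (SE 0.66, adjusted p = 0.00967), or -2.71 without etoposide array 3, and the second CDK1 probe changed by -3.82 (SE 0.43, adjusted p = 0.000971). That second probe was under 64 on all 3 etoposide arrays, so its fold is a bound: at least 6.45-fold lower with etoposide when the dim arrays are put at 64. Such bounds set the mean log2 of the brighter group against 64. From here on they are given beside called changes of member probes where all arrays of a group were under 64.

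The enzymes that act on CDK1 had smaller fitted changes, although CDC25C and PLK1 were dim with etoposide, so their changes may be larger than fitted. CDC25B, a phosphatase that removes the inhibitory phosphate, had 333, 388 and 532.5 with etoposide, against 1275.5, 1293 and 1033 with DMSO. The groups were well separated, and the change was -1.54 (SE 0.29, adjusted p = 0.0119), 2.92-fold lower. CDC25C, a second phosphatase of this family, had 23.8, 62.7 and 49.3 with etoposide, against 202, 258 and 111 with DMSO. No etoposide array reached 64, and the level was at least 2.81-fold lower (fitted change -2.10, SE 0.47, adjusted p = 0.0292). WEE1, the kinase that opposes them, fell as well, with 152, 92.6 and 132 with etoposide, against 394, 383 and 425 with DMSO. Its change was -1.70 (SE 0.32, adjusted p = 0.0138), so the inhibitor and the activators of CDK1 were lower together. PLK1, which promotes mitotic entry, had 72.7, 51.2 and 49.8 with etoposide, against 230.1, 222 and 206 with DMSO. Only etoposide array 1 reached 64, and the change was -1.94 (SE 0.29, adjusted p = 0.00341).

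CDC20, which turns the APC/C on in mitosis, had 668, 794 and 299.9 with etoposide, against 7112, 8288 and 3763 with DMSO. All 6 arrays were far above 64, array 3 was the lowest in both groups, and the change was -3.48 (SE 0.40, adjusted p = 0.000971), 11.2-fold lower. FOXM1, a transcription factor that drives G2/M genes, had 41.0, 80.0 and 20.5 with etoposide, against 471, 523 and 154.5 with DMSO. Only etoposide array 2 reached 64, and the change was -3.05 (SE 0.60, adjusted p = 0.0155). Without the arrays numbered 3 all 10 genes were still lower (13.7% of all probes were then called lower), whereas 6 of the 10 were lower without ING2-WT DMSO array 1 (1.35% of all probes) and 6 without array 2 of that group (1.36%). Fitted on the 6 arrays of ING2-WT cells alone, 2 of the 10 were lower, against 0.472% of all probes.

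**Figure D1:**
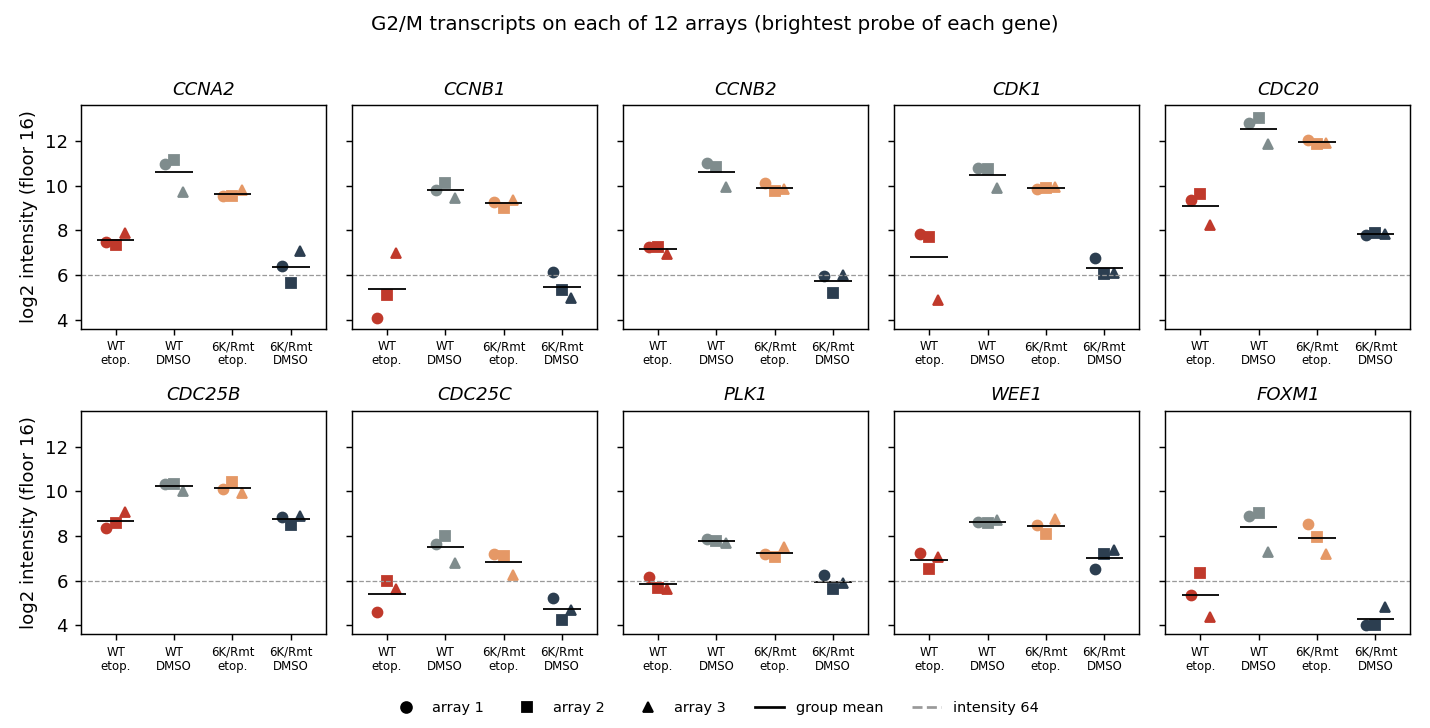
Log2 intensity (floor 16) of the brightest probe of each member on the 12 arrays. Points are arrays, their shape gives the array number, short lines are means of 3 arrays and the dashed line marks an intensity of 64. In all 10 genes the ING2-WT etoposide and ING2-6K/Rmt DMSO arrays lie below the ING2-WT DMSO and ING2-6K/Rmt etoposide arrays. The share of all probes that split in this way was not counted.

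The second comparison asks the same of the arrays labelled ING2-6K/Rmt, and there the direction was the opposite. Of the 10 genes 8 were higher on the arrays labelled etoposide, 0 were lower and 2, CDC25C and WEE1, did not pass (adjusted p = 0.0535 and 0.0668). By probe, 11 of the 15 were called higher, against 1.28% of all probes called higher and 0.0712% called lower. With no filter 6 of the 15 were higher, against 0.301% of all probes. Median log2 change was 3.42 over the members and -0.04 over all tested probes. No gene overlapped between the groups, as 9.13% of all probes did in this direction.

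CCNB2 had intensities of 1100.1, 874 and 924 on the arrays labelled ING2-6K/Rmt etoposide, against 62.1, 36.8 and 64.2 on those labelled ING2-6K/Rmt DMSO. Only DMSO array 3 reached 64. The change was 4.19 (SE 0.35, adjusted p = 0.000150), 18.2-fold higher. CCNB1 had 619, 514 and 669 with etoposide, against 69.5, 39.6 and 31.5 with DMSO, of which only array 1 reached 64, a change of 3.75 (SE 0.60, adjusted p = 0.00822). CCNA2 had 746, 748 and 896 with etoposide, against 84.8, 49.9 and 134 with DMSO, a change of 3.26 (SE 0.44, adjusted p = 0.00264). The 3 etoposide arrays of each cyclin lay closer together on the log2 scale than its DMSO arrays.

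CDK1 had 916, 947 and 993 at its brighter probe with etoposide, against 109.5, 66.7 and 68.4 with DMSO, all of them measured above 64. Its change was 3.58 (SE 0.66, adjusted p = 0.0190), and 3.12 at the second probe (SE 0.43, adjusted p = 0.00311), where the DMSO arrays were all under 64 and the level with etoposide was at least 3.48-fold higher. CDC20 had 4277, 3727 and 3877 with etoposide, against 223, 234 and 232 with DMSO. Both groups were tight, and the change was 4.11 (SE 0.40, adjusted p = 0.000313), 17.2-fold higher. FOXM1 had 378, 249 and 148.5 with etoposide, against 0.439, 7.84 and 28.6 with DMSO, where no array reached 64. The level of FOXM1 was at least 3.76-fold higher with etoposide (fitted change 3.63, SE 0.60, adjusted p = 0.00922, and 1.91 with a floor of 64).

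CDC25B, PLK1 and WEE1 had the smallest fitted changes. CDC25B had 1094, 1365 and 989 with etoposide, against 464, 366 and 485 with DMSO, a change of 1.39 (SE 0.29, adjusted p = 0.0395). PLK1 had 147, 133 and 179 with etoposide, against 76.9, 49.4 and 60.0 with DMSO, where only array 1 reached 64. Its change of 1.31 (SE 0.29) passed only narrowly (adjusted p = 0.04999). WEE1 had 356, 276 and 441 with etoposide, against 92.3, 147 and 167 with DMSO. The groups did not overlap, but the change of 1.42 (SE 0.32) did not pass. CDC25C had 148, 138 and 76.4 with etoposide, against 37.6, 18.7 and 25.6 with DMSO, a fitted change of 2.15 (SE 0.47) that did not pass at this probe, with no DMSO array at 64. Without the arrays numbered 3 all 10 genes were higher (15.2% of all probes were then called higher). Leaving out single arrays of these groups lowered the count to 4 without ING2-6K/Rmt etoposide array 1 or 2 or ING2-6K/Rmt DMSO array 1 or 2 (0.666% to 0.75% of all probes), and to 5 without array 3 of either group (0.809% and 1.17%).

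**Figure D2:**
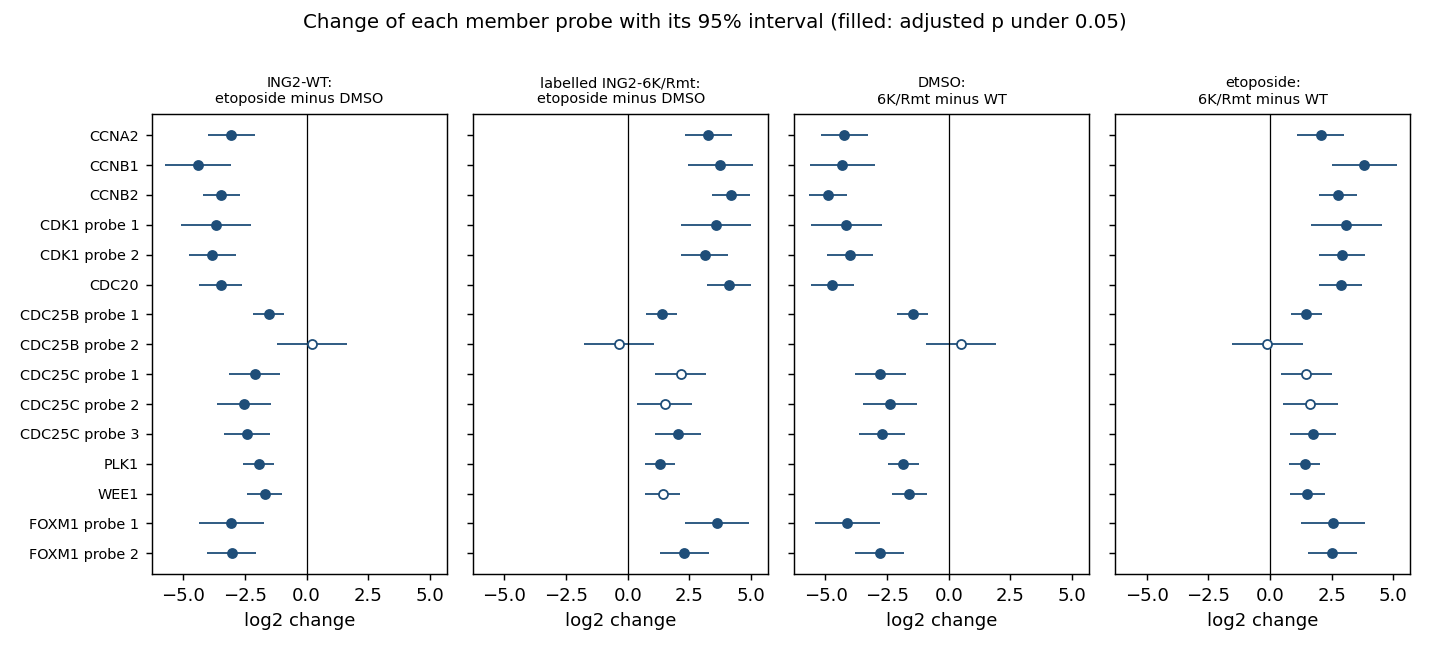
Log2 change of each of the 15 member probes in 4 comparisons, with its 95% confidence interval. Filled points had an adjusted p under 0.05. Apart from the second CDC25B probe, the probes lie left of 0 with etoposide in ING2-WT cells and in ING2-6K/Rmt against ING2-WT cells in DMSO, and right of 0 in the other 2 panels.

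The difference between the etoposide effects of the 2 lines was tested as an interaction, the effect on the arrays labelled ING2-6K/Rmt minus that in ING2-WT cells. All 10 genes had a positive difference that passed, as did 14 of the 15 probes, against 3.51% of all probes. With no filter 14 of the 15 probes passed too, against 0.969% of all probes. Its median over the members was 6.5 on the log2 scale and 0.06 over all tested probes. The difference was 8.16 (SE 0.85, adjusted p = 0.000169) for CCNB1, 7.65 (SE 0.49, adjusted p = 6.91e-06) for CCNB2 and 7.59 (SE 0.57, adjusted p = 1.78e-05) for CDC20. CDC25B had the smallest difference of the members, 2.93 (SE 0.40, adjusted p = 0.00109), followed by WEE1 with 3.12 and PLK1 with 3.26. Sizes of dim genes depended on the floor: at a floor of 64 the difference was 6.64 for CCNB1, 4.20 for FOXM1 and 2.35 for CDC25C. Without ING2-WT etoposide array 3 it was 8.96 for CCNB1 and 6.29 for CDK1. Sign, size and order of these differences rest on the labels of the ING2-6K/Rmt arrays. The sum of both etoposide effects is 0 where they are opposite and equal, and it was added after the values were seen. It was -0.65 to 0.73 over the members (SE 0.40 to 0.93) and passed in 0 of them (limma, lowest adjusted p = 0.921). Of 15459 probes 0 were called, and 712 had an unadjusted p under 0.05. With standard errors of this size the test cannot show that the effects were equal. The sum was not refitted without the arrays numbered 3. The 2 effects were then -5.38 and 3.43 for CCNB1, -3.12 and 4.26 for FOXM1 and -3.64 and 3.52 for CCNA2. In the interaction itself all 10 genes passed without the arrays numbered 3 (15.7% of all probes were then called higher). All 10 also passed when any single array was left out (2.56% to 6% of all probes called higher).

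Setting the lines side by side in DMSO asks whether they differed without etoposide. The labels give 16 h for the DMSO arrays too, so these are solvent controls and not samples taken before treatment. All 10 genes were lower on the arrays labelled ING2-6K/Rmt DMSO than in ING2-WT DMSO cells, as were 14 of the 15 probes, against 1.95% of all probes. With no filter 13 of the 15 were lower, against 0.566% of all probes. Median log2 change was -4.14 over the members and 0.05 over all tested probes. CCNB2 averaged 54.4 ± 15.2 on the ING2-6K/Rmt arrays and 1647 ± 576 in ING2-WT cells (SD, n = 3 each), a change of -4.89 (SE 0.35, adjusted p = 3.74e-05). CDC20 averaged 229.8 ± 5.62 and 6388 ± 2348, a change of -4.72 (SE 0.40, adjusted p = 0.000104). FOXM1 averaged 12.3 ± 14.6 and 383 ± 199.7, at least 5.26-fold lower (fitted change -4.12, SE 0.60, adjusted p = 0.00272, and -2.39 with a floor of 64). For CDC25B the change was -1.46 (SE 0.29, adjusted p = 0.0197), for WEE1 -1.61 and for PLK1 -1.84. None of the 10 genes overlapped between these groups (9.00% of all probes in this direction), and without the arrays numbered 3 all 10 were lower (10.2% of all probes were then called lower). Without ING2-WT DMSO array 2 the count was 7, against 1.13% of all probes.

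In etoposide the order of the lines was the reverse. Of the 10 genes 9 were higher on the arrays labelled ING2-6K/Rmt etoposide than in ING2-WT etoposide cells, as were 12 of the 15 probes, against 2.98% of all probes. With no filter 8 of the 15 were higher, against 0.586% of all probes, and CCNA2, CDK1 and FOXM1 were no longer called. Median log2 change was 2.32 over the members and 0.09 over all tested probes. CCNB1 averaged 600 ± 79.0 on the ING2-6K/Rmt arrays and 59.4 ± 59.4 in ING2-WT cells, a change of 3.83 (SE 0.60, adjusted p = 0.00604), or 3.18 without ING2-WT etoposide array 1 and 4.64 without array 3. CDK1 averaged 952 ± 39.1 and 155 ± 109.6, a change of 3.10 (SE 0.66, adjusted p = 0.0247), with ING2-WT etoposide array 3 far below the other arrays of its group and a change of 2.13 without it. For CCNA2 the change was 2.07 (SE 0.44, adjusted p = 0.0243). CDC25C, at 121 ± 38.8 and 45.3 ± 19.7, did not pass (fitted change 1.47, SE 0.47, adjusted p = 0.0979). No gene overlapped between the groups (15.0% of all probes in this direction), and without the arrays numbered 3 all 10 were higher (17.9% of all probes were then called higher). The count was 3 without ING2-6K/Rmt etoposide array 1 or 2 (0.912% and 1.05% of all probes), 4 without array 3 of that group (1.02%), and 3 when only the 6 arrays of etoposide-treated cells were fitted (1.33%). The 4 comparisons of group pairs share arrays with each other and with the interaction, so their counts do not add up as separate evidence.

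Ordered by mean log2 level, all 10 genes had the same 2 groups on top. ING2-WT DMSO cells were highest and the arrays labelled ING2-6K/Rmt etoposide came second, and the step between them passed in no gene (lowest adjusted p = 0.930). The log2 difference of the second from the first was -0.98 for CCNA2, the widest, and -0.07 for CDC25B, the narrowest, and it was below 0 in 10 of 10 genes. Of the lower groups, ING2-WT etoposide was the lowest for CCNB1, CDC25B, PLK1 and WEE1 and ING2-6K/Rmt DMSO for the other 6, and this step passed in no gene either (lowest adjusted p = 0.212, for CCNB2). The third group was ING2-6K/Rmt DMSO for CCNB1, CDC25B, PLK1 and WEE1 and ING2-WT etoposide for the other 6. The step to it from the second group was thus picked by the order of these same means. It passed in 8 genes and missed for CDC25C (adjusted p = 0.0979) and WEE1 (adjusted p = 0.0668). Of all probes 1.28% were called higher in the contrast used for CCNB1, CDC25B, PLK1 and WEE1, and 2.98% in that used for the other 6.

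No probe of the 15459 was called between ING2-6K/Rmt etoposide and ING2-WT DMSO (limma; 578 probes, or 3.74%, at an unadjusted p under 0.05, and 0 called with a trended, robust prior), nor between ING2-6K/Rmt DMSO and ING2-WT etoposide (1604 probes, or 10.4%, and again 0). The array numbers paired both of these comparisons, and a block for that number gave counts of 0 and 0 as well, with a lowest adjusted p over the members of 0.470 and 0.130, both for CCNB2. These counts depended on the arrays numbered 3. Without them 4353 probes were called between the first pair, among them CCNA2 (log2 change -1.51), CCNB2 (-1.01), CDK1 (-0.90) and CDC20 (-0.94), all lower on the ING2-6K/Rmt etoposide arrays than in ING2-WT DMSO cells, as were 15.2% of all probes. For the second pair 2837 probes were called, among them CCNA2 (-1.39), CCNB2 (-1.68), CDK1 (-1.35), CDC20 (-1.67) and FOXM1 (-1.84), all lower on the ING2-6K/Rmt DMSO arrays than in ING2-WT etoposide cells, as were 8.84% of all probes. A moderated F test over the 4 groups called 14 of the 15 member probes, against 3.39% of all probes, and the same number without the arrays numbered 3, against 53.7% of all probes.

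Of the genes with several probes, CDK1, CDC25C and FOXM1 had fitted changes in the same direction at each of them. Over the 12 arrays Pearson's r between probes of a gene was 0.973 for CDK1, 0.921 for FOXM1 and 0.887 to 0.915 for the 3 CDC25C probes, as a description of arrays that share groups. On the ING2-6K/Rmt arrays 1 of the 3 CDC25C probes passed. The third probe had 71.4, 92.1 and 56.9 on the arrays labelled ING2-6K/Rmt etoposide, against 11.6, 9.15 and 21.2 on those labelled ING2-6K/Rmt DMSO (fitted change 2.04, SE 0.43, adjusted p = 0.0439), at least 1.13-fold higher. This call was lost under 17 of 25 alternatives. The second CDC25C probe had 120.6, 102 and 37.0 with etoposide, against 42.9, 28.5 and 16.6 with DMSO, which overlap, and it did not pass (fitted change 1.49, adjusted p = 0.326). CDC25B was the exception. Its dimmer probe had 4.53, 62.7 and 71.7 with etoposide in ING2-WT cells, against 29.1, 18.9 and 80.2 with DMSO. The arrays overlapped, and the change of 0.24 (SE 0.65, adjusted p = 0.884) did not pass, nor did any other comparison of this probe. It correlated at -0.191 with the brighter CDC25B probe and reached 64 on 3 of the 12 arrays, so CDC25B rests on 1 probe.

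**Figure D3:**
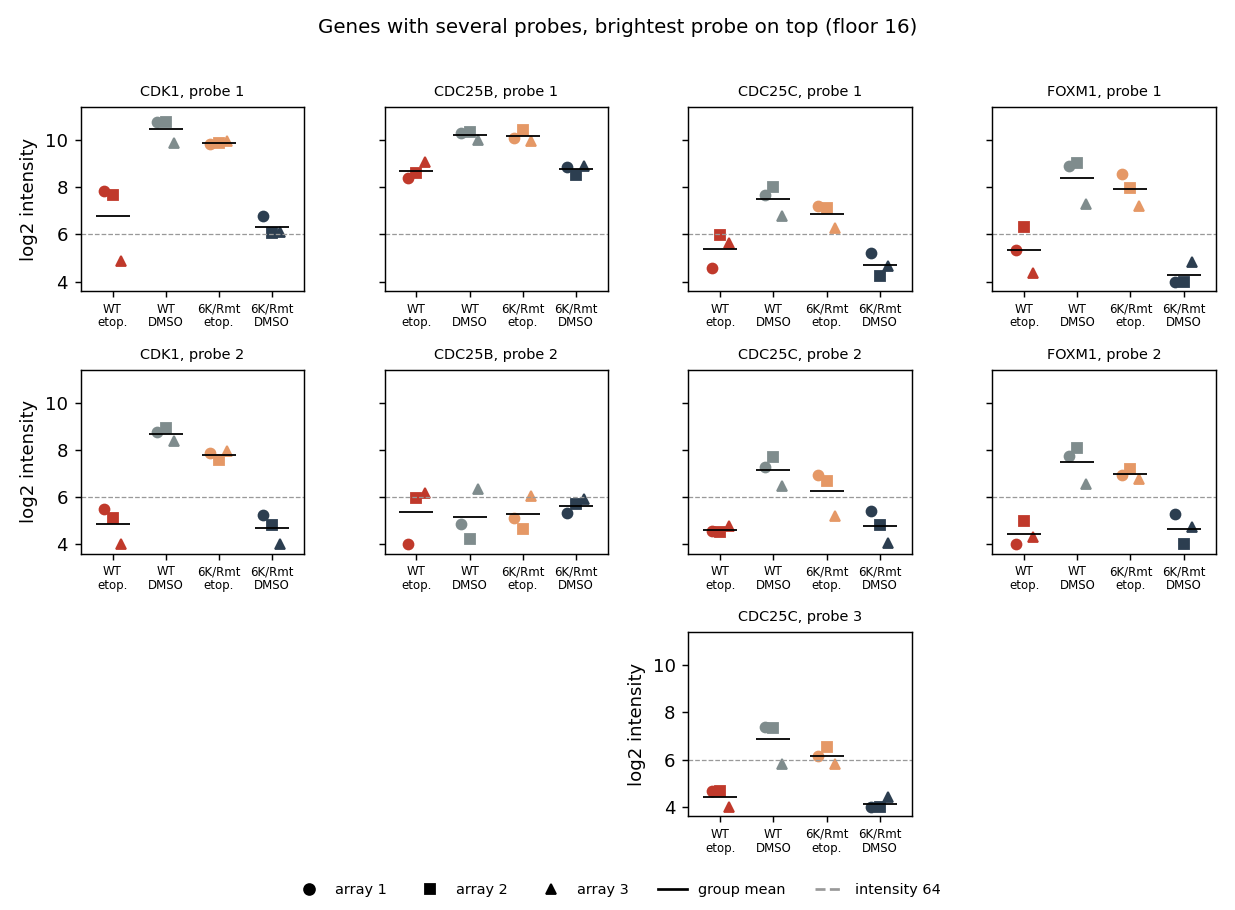
Log2 intensity (floor 16) of every probe of the 4 members that have several, ordered from the brightest probe down, on the 12 arrays. Points are arrays, short lines group means of 3 and the dashed line an intensity of 64. The second CDC25B probe stays around the dashed line or below it in all 4 groups, whereas at all other probes the means of ING2-WT DMSO and ING2-6K/Rmt etoposide are the highest.

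Wider lists of genes that work with the members gave mixed results. Of 23 further regulators of CDK1, 22 were tested. With etoposide in ING2-WT cells 7 were lower and 2 higher (2.86% and 1.43% of all probes), with a median log2 change of -0.64. On the arrays labelled ING2-6K/Rmt 4 were higher and 1 lower with etoposide (1.28% and 0.0712% of all probes), with a median of 0.68. PKMYT1, a relative of WEE1 that also phosphorylates CDK1, averaged 44.2 with etoposide and 277 with DMSO in ING2-WT cells (change -2.67, SE 0.33, adjusted p = 0.00132), and 205.5 with etoposide and 16.9 with DMSO on the ING2-6K/Rmt arrays (change 3.44, SE 0.33, adjusted p = 0.000313). AURKA, the kinase that activates PLK1, averaged 234 with etoposide and 1566 with DMSO in ING2-WT cells (change -2.66, adjusted p = 0.00116), and 1213 with etoposide and 129.5 with DMSO on the ING2-6K/Rmt arrays (change 3.22, adjusted p = 0.000326). CDKN3, a phosphatase of cyclin-dependent kinases, changed by -4.30 (SE 0.70, adjusted p = 0.00603) in ING2-WT cells, the largest fall of this list, and by 3.15 on the ING2-6K/Rmt arrays, which did not pass (adjusted p = 0.0603).

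The 2 genes of this list called higher with etoposide in ING2-WT cells, CDKN1A and GADD45A, are induced by p53. CDKN1A was 2.11 higher on the log2 scale with etoposide in ING2-WT cells (SE 0.32, adjusted p = 0.00373) and fell by 1.61 with etoposide on the ING2-6K/Rmt arrays (SE 0.32, adjusted p = 0.0292). GADD45A, a stress gene that can restrain the cyclin B kinase, averaged 4463 with etoposide and 1805 with DMSO in ING2-WT cells (change 1.30, SE 0.31, adjusted p = 0.0401), and its change of -0.47 on the ING2-6K/Rmt arrays did not pass (adjusted p = 0.731). SFN, a 14-3-3 protein that holds CDK1 in the cytoplasm, missed the threshold in ING2-WT cells (change 2.37, adjusted p = 0.0509) and was lower on the arrays labelled ING2-6K/Rmt etoposide than in ING2-WT etoposide cells (change -2.71, adjusted p = 0.0305). CDKN1B, an inhibitor of G1 and S phase cyclin-dependent kinases, was higher with etoposide on the ING2-6K/Rmt arrays, in the direction of the members (change 1.12, SE 0.24, adjusted p = 0.0481). In the interaction 11 of the 22 were higher (3.51% of all probes) and 2 lower (2.02% of all probes), CDKN1A (-3.73) and GADD45A (-1.78). Without the arrays numbered 3 the list had 12 lower and 3 higher with etoposide in ING2-WT cells (13.7% and 11.6% of all probes), and 11 higher and 5 lower on the ING2-6K/Rmt arrays (15.2% and 16.6%). The other 2 lists had few calls with etoposide in either line. Of 15 tested subunits and partners of the APC/C, 2 were lower with etoposide in ING2-WT cells (2.86% of all probes): UBE2C, its ubiquitin-conjugating enzyme (change -3.85, SE 0.51, adjusted p = 0.00209), and FZR1, its G1 activator (change -1.11, SE 0.25, adjusted p = 0.0283). UBE2C was also the 1 gene of this list called on the ING2-6K/Rmt arrays, higher with etoposide (change 3.82, SE 0.51, adjusted p = 0.00264), where 1.28% of all probes were higher. The DREAM and MMB complexes are known to act through a CHR, which was not measured here. Of their 11 tested subunits 1 passed in these comparisons, RBL1, against 2.86% of all probes lower and 1.28% higher. RBL1 was lower with etoposide in ING2-WT cells (change -1.96, SE 0.38, adjusted p = 0.0151) and higher on the ING2-6K/Rmt arrays (change 1.87, SE 0.38, adjusted p = 0.0373). Without the arrays numbered 3 these lists, of 15 and 11 tested genes, had 5 and 4 lower and 1 and 0 higher in ING2-WT cells. Of all probes 13.7% were then lower and 11.6% higher. On the ING2-6K/Rmt arrays 1 and 3 genes were higher and 6 and 1 lower, against 15.2% and 16.6% of all probes. The medians of the APC/C list were 0.04 and -0.10 and those of the DREAM and MMB list -0.15 and 0.19 in these comparisons with all arrays. In the interaction 2 of the 15 APC/C genes and 3 of the 11 DREAM and MMB genes were higher and 0 lower (3.51% and 2.02% of all probes). MYBL2, also on the DREAM and MMB list, was under the filter and not tested.

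**Figure D4:**
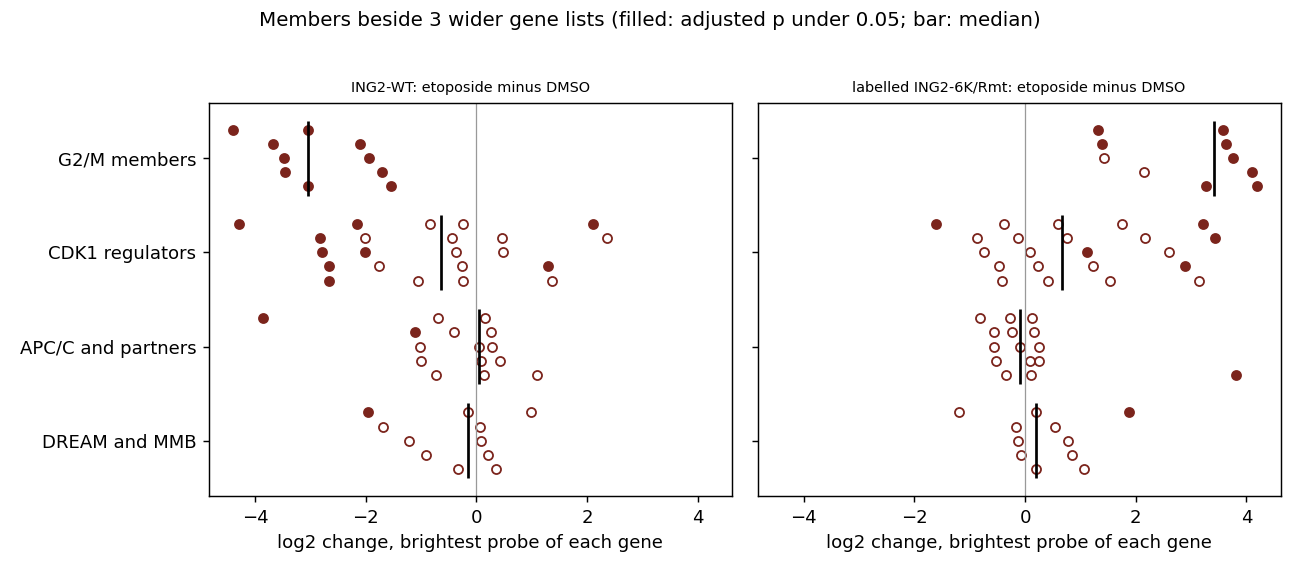
Log2 change with etoposide in ING2-WT cells (left) and on the arrays labelled ING2-6K/Rmt (right) for the 10 members and 3 wider lists. Points are genes at their brightest probe, filled where adjusted p was under 0.05, and bars are medians. The members' medians are -3.05 and 3.42, and those of the other lists lie between -0.64 and 0.68.

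Across the 12 arrays the members followed each other closely. Pearson's r of log2 values over the 45 pairs of members was 0.729 to 0.987, with a median of 0.904, highest for CCNB2 with CDC20 and lowest for CDC25C with WEE1. These values describe 12 arrays that fall into 4 groups, and so carry no p. The gene outside the members whose probe was most like each of them, by the same r, was MCM10 for CCNA2 (0.989), ERCC6L for CCNB1 (0.991), DEPDC1 for CCNB2 (0.991), EXO1 for CDK1 (0.992) and BIRC5 for CDC20 (0.995). For the others it was SPAG5 for CDC25B (0.974), the transcript annotated GCUD2 for CDC25C (0.968), USP13 for PLK1 (0.981), BRI3BP for WEE1 (0.971) and NEK2 for FOXM1 (0.987). GCUD2 is now named FAM72D and belongs to a family of near-identical copies, so its probe may not tell them apart.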

How the data were processed

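HT1080 RNA had been labelled with biotin and hybridised to Illumina BeadArrays. Per the study's methods the authors processed the probe-level data in GeneSpring and analysed them in MeV. The deposited values are linear intensity, 1 value a probe and array. The authors subtracted background and scaled the arrays, by a method not given in the sources used here. The other deposited column used, of unit other, held the probe's gene symbol. The table also holds 24 per-array columns (signal, detection) under names found in no label, and they were left out. Between 0.434% and 26.9% of the deposited values of an array were below 0, and their 75th percentile was 75.6 to 87.7.

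Values were quantile-normalised, set to at least 16 and taken to log2. The brightest probe by mean log2 value stands for a gene. The 4 group means were fitted over 12 arrays and 15459 probes with limma 3.58.1 in R 4.3.3. Tests were moderated and two-sided, with Benjamini-Hochberg adjustment over all probes tested and a threshold of 0.05. Intervals cover 95%. The number of arrays limits the precision, with a median standard error of 0.461 on the log2 scale for an etoposide effect. The procedure was tested on simulated data. There the arrays varied independently, with the same spread of a probe in all groups. The simulation therefore does not cover arrays that deviate together by their number. The text names every member, and for each the gene outside the members with the highest correlation. From each wider list it names called genes with large changes and exceptions, a part of those the rule allows. The members, lists and tests were chosen with earlier results of these data known. The arrays of one number deviated together between ING2-WT etoposide and ING2-WT DMSO (r = 0.218, 0.261 and 0.319), between ING2-6K/Rmt DMSO and ING2-WT DMSO (r = 0.460, 0.368 and 0.635), between ING2-6K/Rmt etoposide and ING2-WT DMSO (r = 0.412, 0.259 and 0.495) and between ING2-6K/Rmt DMSO and ING2-WT etoposide (r = 0.167, 0.232 and 0.270), so for these the numbers pair the arrays by the data alone, since the labels name nothing they share. Alternatives covered scaling, floor, filter, probe choice, arrays in the fit, replicate block, weights, prior and threshold. Promoter windows came from RefSeq (GRCh38.p14).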

Additional observations from a re-analysis of the deposited data

Results flagged for a closer look

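Each of the 10 members stood out because its etoposide effect differed between the lines in the interaction test, the effect on the arrays labelled ING2-6K/Rmt minus that in ING2-WT cells. On the log2 scale the difference was 6.31 for CCNA2, 8.16 for CCNB1, 7.65 for CCNB2, 7.26 for CDK1, 7.59 for CDC20, 2.93 for CDC25B, 4.25 for CDC25C, 3.26 for PLK1, 3.12 for WEE1 and 6.68 for FOXM1 (limma, adjusted p between 6.91e-06 and 0.00259). In all 10 genes the 3 etoposide arrays were below the 3 DMSO arrays in ING2-WT cells, as for 10.8% of all probes. On the arrays labelled ING2-6K/Rmt the etoposide arrays were above the DMSO arrays in all 10, as for 9.13% of all probes. In the interaction 3.51% of all probes were called higher.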

How the results depend on the processing

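The counts given are of the 10 genes called, in the order etoposide in ING2-WT cells, etoposide on the arrays labelled ING2-6K/Rmt, their difference, the lines in DMSO and the lines in etoposide, where the main counts were 10, 8, 10, 10 and 9. Requiring 64 or more on all 12 arrays left 3 genes to test, CDC20, CDC25B and WEE1, and the counts were 3, 2, 3, 3 and 3, against 1.66%, 0.682%, 3.05%, 1.22% and 2.14% of all probes called in the direction of the members. With no filter the counts were 8, 5, 10, 10 and 6, with shares of 0.768%, 0.301%, 0.969%, 0.566% and 0.586%. Fitting only the groups compared gave 2 for etoposide in ING2-WT cells and 3 for the lines in etoposide, with shares of 0.472% and 1.33%. At an adjusted p under 0.01 the counts were 6, 5 and 3 for the first, second and last comparison, with shares of 1.18%, 0.737% and 0.789%. Leaving out each array in turn gave 6 to 10, 4 to 10, 10 to 10, 7 to 10 and 3 to 9. The shares over these fits were 1.35% to 3.94%, 0.666% to 1.74%, 2.56% to 6%, 1.13% to 2.72% and 0.912% to 5.5%. Without the arrays numbered 3 every count was 10, with shares of 13.7%, 15.2%, 15.7%, 10.2% and 17.9%. With the replicate block the counts were 10, 9, 10, 10 and 9, the gain being WEE1, with shares of 4.92%, 1.90%, 6.40%, 2.74% and 7.15%, and no call of a member gene was lost. Over 1985 values of member probes under the alternatives, 1754 kept direction and call, 189 lost the call and 30 gained it. The other 12 were of the dimmer CDC25B probe, which changed sign and was called in neither fit. In the wider lists, LIN52 between the lines in DMSO (0.01) was -0.72 with array weights and -0.82 without the arrays numbered 3, and ANAPC7 between the lines in etoposide (0.41) was -0.52 without them; the cause was not tested. Dim probes limit the data: FOXM1 and CDC25C were under 64 on every ING2-6K/Rmt DMSO array.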
